A study of Mus musculus with 32 samples.

Results

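The circadian clock genes and their output genes were examined in the midbrain and the medulla of mice with and without the cholecystokinin B receptor gene Cckbr. The genes were Dbp, Nr1d1, Nr1d2, Tef, Hlf, Per1, Per2, Arntl, Cry1 and Clock, and every probe set annotated with 1 of these symbols was taken, a probe set being a group of short oligonucleotides that together read 1 transcript. All 10 genes were on the array, with 17 probe sets of the 22626 tested, and are 10 of the 12393 genes that had a probe set with a single symbol. Dbp, Nr1d2, Hlf, Per2 and Clock had 2 probe sets each and Tef had 3, and the brightest probe set of a gene is meant unless another is named.

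The mammalian clock is a feedback loop. The transcription factors Clock and Arntl (also called Bmal1) bind E-boxes and switch on the Per and Cry genes, whose proteins return to block them. The nuclear receptors Nr1d1 and Nr1d2 (Rev-erb alpha and beta) repress Arntl, and the PAR-type leucine zipper factors Dbp, Tef and Hlf pass the rhythm on to output genes through D-boxes. Brain regions outside the suprachiasmatic nucleus hold clocks of their own, in which Dbp, Per1, Per2 and Nr1d1 are known for wide daily swings and Arntl peaks at about the opposite time of day.

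The study hybridised 1 array to each of 2 regions from 16 mice, giving 32 arrays in 8 groups of 4. The mice were control or Cckbr-deficient (KO), and each genotype had a sham operation or chronic constriction injury of a nerve (CCI, called neuropathic in the labels), a model of lasting neuropathic pain. Strain, sex, age, the construction of the mutant allele and the hour at which tissue was taken are not given in the sources used here. Values are the authors' background-subtracted intensities, and differences are of log2(intensity + 16), a scale that shrinks the differences of dim genes. In bulk tissue, fewer cells of a type and less RNA per cell cannot be told apart.

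Cckbr read 137 to 200.2 intensity units in control medulla and 122 to 177 in control midbrain, against 5.92 to 24.1 in KO medulla and -1.49 to 12.9 in KO midbrain. The dissections carried their markers: Slc6a3, the dopamine transporter, averaged 4.78 in the medulla and 578 in the midbrain, and Hoxa5, a hindbrain patterning gene, 622 and 20.2. KO sham midbrain 2 and 4 stood apart on the first principal component of the midbrain arrays, at 36 and 26.4 where the other 14 lay between -21.9 and 16.2, and KO sham midbrain 2 had a 3' to 5' log2 ratio of Actb of 1.602, where the next highest array had 0.775. The clock gene differences and correlations that those 2 arrays bear on most are also given without them. Array descriptions carry a code of unstated meaning: 14 arrays share a lower code, 16 a higher one, and both arrays of control sham 1 have a code of their own. They also carry an array number. Within the lower and within the higher code, every KO array has a lower number than every control array. What the number's order stands for is not stated, and genotype cannot be told apart from it.

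RefSeq promoter windows of GRCm38.p6, from 250 bases before to 50 after a transcription start, were at hand for 9 of the 10 genes (not for Per2), with 14 start sites. They were searched on both strands for the E-box CACGTG, the D-boxes TTATGTAA and TTACGTAA, and the nuclear receptor site AGGTCA, motifs that do not overlap 1 another in these windows. The E-box was in 4 windows of 3 genes, Tef, Per1 and Cry1, against 7.15% of all 32851 windows of this length. The receptor site was in 1 window each of Nr1d2, Per1, Arntl and Clock, against 16.3% of all windows. Neither D-box was in any of the 14 windows, against 1.06% of all. The windows of Per1, Tef and Cry1 are shown because they carry the E-box through which the loop is known to act. That of Dbp is shown because the other genes are set against Dbp below. Capitals mark a motif match, and each match is a description of letters, not of a bound site.
Per1, start site 1, chr11:69098699-69098998, plus strand: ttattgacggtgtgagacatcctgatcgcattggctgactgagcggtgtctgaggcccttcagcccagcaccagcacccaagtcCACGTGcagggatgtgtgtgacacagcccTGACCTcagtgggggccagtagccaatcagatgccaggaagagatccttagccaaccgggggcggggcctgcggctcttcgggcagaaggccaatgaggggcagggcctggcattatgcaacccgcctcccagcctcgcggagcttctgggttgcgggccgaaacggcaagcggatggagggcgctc
Tef, start site 1, chr15:81802423-81802722, plus strand: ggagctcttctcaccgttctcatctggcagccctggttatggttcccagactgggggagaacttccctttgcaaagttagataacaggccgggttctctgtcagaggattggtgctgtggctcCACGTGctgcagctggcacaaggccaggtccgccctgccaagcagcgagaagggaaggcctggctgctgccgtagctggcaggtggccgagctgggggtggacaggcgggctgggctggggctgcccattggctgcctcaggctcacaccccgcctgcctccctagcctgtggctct
Cry1, start site 1, chr10:85185005-85185304, minus strand: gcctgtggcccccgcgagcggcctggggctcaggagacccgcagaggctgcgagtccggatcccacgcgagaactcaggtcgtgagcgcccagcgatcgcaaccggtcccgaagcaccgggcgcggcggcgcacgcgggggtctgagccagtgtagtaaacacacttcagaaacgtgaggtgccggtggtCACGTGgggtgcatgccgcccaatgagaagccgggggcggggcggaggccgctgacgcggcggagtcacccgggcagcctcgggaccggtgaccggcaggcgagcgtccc
Dbp, start site 1, chr7:45704997-45705296, plus strand: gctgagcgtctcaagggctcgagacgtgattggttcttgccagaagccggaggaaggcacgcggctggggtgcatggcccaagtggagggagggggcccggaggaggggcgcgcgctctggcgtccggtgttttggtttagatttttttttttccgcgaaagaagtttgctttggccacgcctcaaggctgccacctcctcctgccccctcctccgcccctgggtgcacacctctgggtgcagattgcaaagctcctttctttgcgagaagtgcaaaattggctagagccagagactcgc
The E-box began 166 bases before the start in Per1, 127 bases before it in Tef and 60 bases before it in Cry1. In Per1 a receptor site, on the other strand, followed at 137 bases before the start. The Dbp window held none of the letters searched.

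Whether loss of Cckbr moved the clock genes was asked first, averaging over sham and CCI mice. No clock probe set passed the threshold of an adjusted p under 0.05 in either region. Dbp came closest, with lower values in KO mice in both regions and on both of its probe sets. In the medulla 0 of the 17 clock probe sets passed limma's moderated test, where 12 of all 22626 (0.0530%) did, and 7 of the 17 had an unadjusted p under 0.05 against 760 of all (3.36%). In the midbrain 0 of 17 passed against 0.0309% of all, and 6 had an unadjusted p under 0.05 against 1694 of all (7.49%). The median difference of the 17 probe sets was -0.05 in the medulla and -0.14 in the midbrain, where all probe sets had medians of -0.0031 and -0.0076. The genes were chosen with earlier results of these data known, and some have several probe sets. The unadjusted counts and medians, here and below, are therefore not an independent test of the clock genes as a set.

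Dbp, the D-box activator whose transcript swings widely over the day in most tissues, read 607, 672, 660.4 and 613 intensity units in the medulla of control sham mice and 591, 628, 562 and 629.9 in that of control CCI mice. KO sham mice read 487, 455, 549.7 and 469 there, and KO CCI mice 449, 499, 608 and 447. Of the 8 KO arrays 7 lay below every control array, and KO CCI 3, at 608, lay within the control range of 562 to 672. The difference was -0.32 (SE 0.07), with an adjusted p of 0.198 from limma, and all 8 KO arrays were below the control median. Without KO CCI medulla 3 the difference was -0.36 and the adjusted p 0.0498, which passed. Over the 25 alternatives it lay between -0.44 and -0.23, below 0 in each, and the adjusted p between 0.0498 and 1.

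The other Dbp probe set gave -0.39 (SE 0.09, limma adjusted p = 0.297) in the medulla. It read 271 to 378 in control sham and 254 to 354 in control CCI mice, against 198 to 239.7 in KO sham and 213 to 259 in KO CCI mice, so that genotypes met only between 254 and 259. Within the lower array code the medulla differences of the 2 probe sets were -0.44 and -0.32, and within the higher code they were -0.23 and -0.34. None of these passed in fits to 7 or 8 arrays.

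In the midbrain Dbp read 764, 823, 695 and 866 in control sham mice, 661, 707, 855 and 918 in control CCI mice, 575, 672, 541 and 924 in KO sham mice and 523, 662, 657 and 535.5 in KO CCI mice. KO sham 4, at 924, was the highest of all 16 midbrain arrays, while the other 7 KO arrays lay below the control median of 794. The genotypes overlapped from 661 upward. The difference was -0.31 (SE 0.10, limma adjusted p = 0.572), and without KO sham midbrain 2 and 4, both left out of the fit, it was -0.43 (SE 0.09, adjusted p = 0.0696). The other probe set gave -0.31 (SE 0.09, adjusted p = 0.476), and -0.30 without those arrays. The genotype difference of Dbp differed between regions by 0.01 on the brightest probe set and 0.08 on the other (midbrain minus medulla), and by -0.11 (SE 0.11) and 0.08 (SE 0.13) without those arrays, so that the first changed sign. The genotype by region interaction called 0 of 17 clock probe sets and 0% of all with limma (859 of all had an unadjusted p under 0.05, no clock probe set among them).

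**Figure D1:**
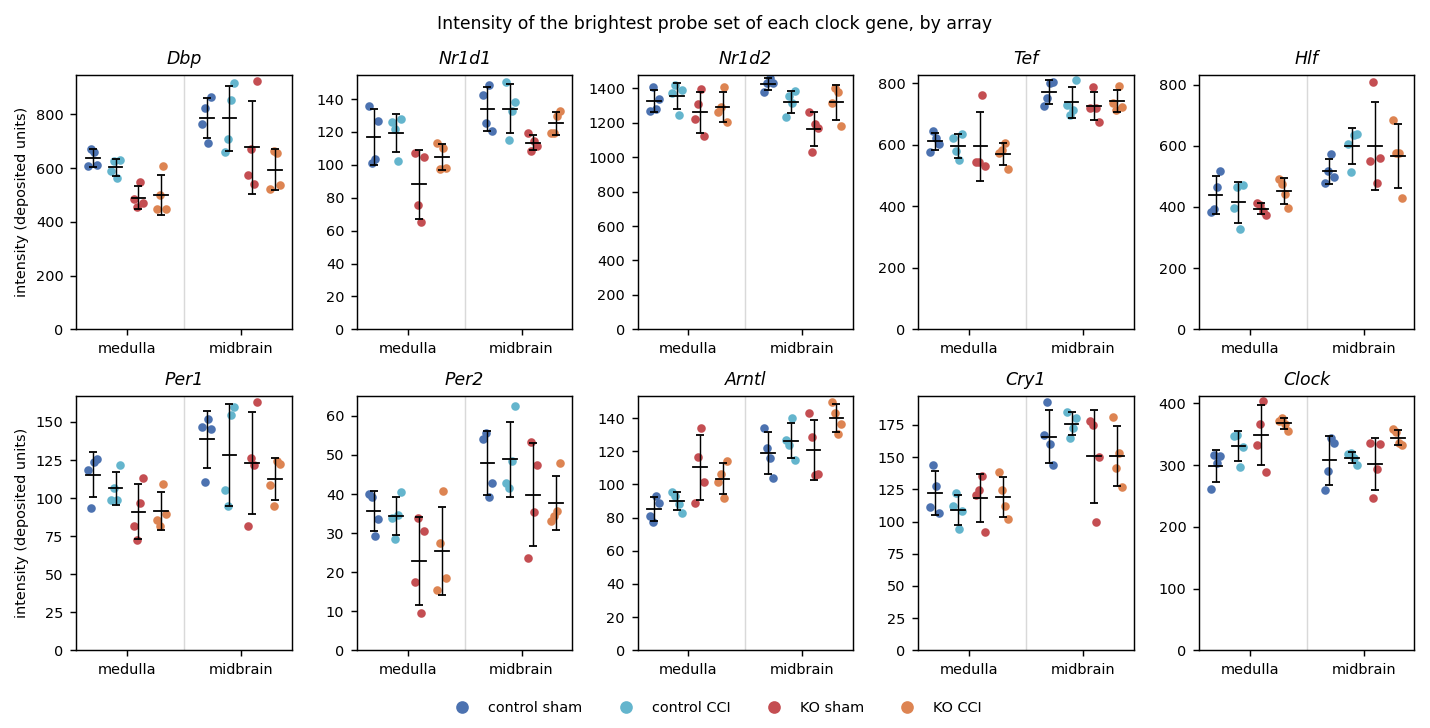
Intensity of the brightest probe set of each of the 10 clock genes (vertical axes, deposited units, from 0) in the medulla and midbrain, with a point for each array, coloured by genotype and operation, and bars for the mean and SD of 4 arrays. In the medulla 7 of 8 KO arrays of Dbp lie below all control arrays, and for most genes the midbrain points stand above those of the medulla.

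The differences of the other PAR zipper genes lay nearer 0 than that of Dbp. Tef, which binds the same D-box, read 549 to 643 in control medulla and 520.4 to 761 in KO medulla, a difference of -0.06 (SE 0.07), and -0.04 (SE 0.06) in the midbrain. Its upper KO value was a single array, KO sham medulla 3. Hlf, the third member, read 329 to 516 in control and 372 to 491 in KO medulla, a difference of -0.01 (SE 0.08), and 0.05 (SE 0.11) in the midbrain. KO and control ranges overlapped widely for both genes, and no probe set of either had an unadjusted p under 0.05 for genotype.

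The nuclear receptors were also lower in KO medulla and midbrain by their brightest probe sets, with no call. Nr1d1, the receptor that represses Arntl, read 136, 101, 104 and 127 in the medulla of control sham mice and 126, 122, 102 and 128 in that of control CCI mice. KO sham mice read 107, 75.85, 65.05 and 105 and KO CCI mice 113, 97.8, 110.3 and 97.9. The lowest values, 75.85 and 65.05, are from the animals of the KO sham midbrain arrays that stood apart. All 8 KO arrays were below the control median of 124, and the ranges overlapped between 101 and 113. The difference was -0.26 (SE 0.09, limma adjusted p = 1, 0.0137 before adjustment). In the midbrain Nr1d1 was again below the control median in 8 of 8 KO arrays, at 109 to 133 against 115 to 151 (-0.16, SE 0.06, adjusted p = 0.583). Nr1d2, its close relative and the brightest clock gene probe set here, read 1245.3 to 1418 in control and 1121 to 1411 in KO medulla, and 1235 to 1458 against 1032 to 1405 in the midbrain. Its differences were -0.07 (SE 0.06) and -0.14 (SE 0.05), and its other probe set gave 0.06 (SE 0.13) and -0.31 (SE 0.23). The latter was -0.07 (SE 0.09) without KO sham midbrain 2, and also without both arrays that stood apart.

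In the negative arm, Per1, the light-responsive Period gene, read 93.5 to 126 in control and 72.7 to 113 in KO medulla, with 7 of 8 KO arrays under the control median of 113. The difference was -0.24 (SE 0.09, limma adjusted p = 1, 0.0210 before adjustment), and -0.18 (SE 0.13) in the midbrain. Per2, its partner, was dim. Its brightest probe set read 28.5 to 40.5 in control and 9.68 to 40.7 in KO medulla (-0.36, SE 0.14, adjusted p = 1), and 39.3 to 62.5 against 23.6 to 53.2 in the midbrain (-0.28, SE 0.12, adjusted p = 0.647). The second Per2 probe set, at 8.61 to 34.3 in the midbrain, pointed the other way there, at 0.30 (SE 0.10, adjusted p = 0.572), so that the Per2 probe sets disagreed in sign in both regions. Cry1, the cryptochrome that holds Clock and Arntl inactive, differed by 0.03 (SE 0.09) in the medulla and -0.19 (SE 0.11) in the midbrain.

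Arntl, the activator that Nr1d1 represses, stood on the opposite side. It read 80.7, 77.4, 93.0 and 89.0 in the medulla of control sham mice and 95.6, 92.9, 88.3 and 82.9 in that of control CCI mice. KO sham mice read 88.8, 116, 134 and 102 and KO CCI mice 101, 106, 91.9 and 114. The highest values, 116 and 134, are from the animals of the KO sham midbrain arrays that stood apart. Of the 8 KO arrays 6 lay above every control array, and all 8 were above the control median of 88.7. The difference was 0.25 (SE 0.08, limma adjusted p = 1, 0.00712 before adjustment), and 0.06 (SE 0.07) in the midbrain, where ranges of 104 to 140.1 and 106 to 149.9 overlapped almost wholly. Clock, the partner of Arntl, read 261 to 349 in control and 289 to 404 in KO medulla (0.17, SE 0.07, adjusted p = 1), and its second probe set gave 0.06 (SE 0.08). In the midbrain the Clock probe sets gave 0.05 (SE 0.07) and 0.04 (SE 0.07).

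Without KO sham midbrain 2 and 4, both left out of the fit, 0 of the 17 clock probe sets passed for genotype in the midbrain with limma. Per2 was then at -0.45 (SE 0.10, adjusted p = 0.0769), Per1 at -0.30 (SE 0.13), Cry1 at -0.26 (SE 0.12) and Nr1d2 at -0.11 (SE 0.05). The Hlf probe sets, at 0.05 and 0.07 with all arrays, were at -0.05 and -0.06 without those 2, and 4 of the 17 probe sets changed sign in all.

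**Figure D2:**
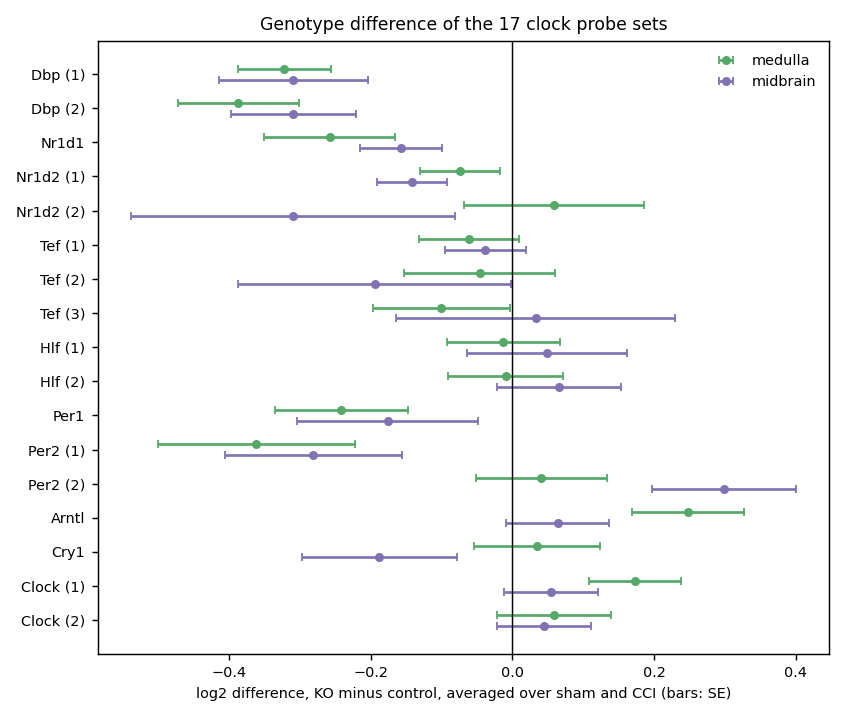
Difference between KO and control mice, averaged over both operations (horizontal axis, log2(intensity + 16)), for the 17 clock probe sets (rows, numbered from the brightest) in the medulla (green) and midbrain (purple), with bars of 1 SE. Both Dbp probe sets lie between -0.39 and -0.31 in both regions, Arntl at 0.25 in the medulla, and the 2 Per2 probe sets lie on opposite sides of 0.

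Split by operation, the medulla differences of Dbp were -0.37 in sham and -0.27 in CCI mice, and those in the midbrain -0.24 and -0.38. Without KO sham midbrain 2 and 4 the sham midbrain difference was -0.48 (SE 0.14, limma adjusted p = 0.262), and 3 of the 17 clock probe sets changed sign in that comparison. With limma 0 of 17 clock probe sets passed in sham medulla (0.0133% of all, 7 clock probe sets and 863 of all with an unadjusted p under 0.05), in CCI medulla (0.00442% of all, 2 and 551), in sham midbrain (0.0133% of all, 5 and 1917) and in CCI midbrain (0.00884% of all, 1 and 1123). The genotype by CCI interaction called 0 of 17 and 0% of all in each region. For Dbp it was 0.10 in the medulla (SE 0.13) and -0.15 in the midbrain (SE 0.21), where it turned to 0.10 (SE 0.18) without KO sham midbrain 2 and 4 and 4 of 17 clock probe sets changed sign.

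Dbp and Arntl lie on chromosome 7, as does Cckbr, with 237 and 46 measured genes between them and Cckbr in the RefSeq order of GRCm38.p6. The other 8 genes lie on chromosomes 1, 5, 10, 11, 14 and 15. Whether the position on chromosome 7 has a part in the differences of Dbp and Arntl was not tested. Other lists were read beside these values. Of 12 glucocorticoid response genes, 10 immediate early genes and 7 temperature response genes measured, none passed for genotype in either region with limma, and 1, 0 and 1 in the medulla and 0, 0 and 2 in the midbrain had an unadjusted p under 0.05. Cirbp, the cold-inducible RNA-binding protein, differed by -0.28 in the medulla (limma adjusted p = 1) and -0.26 in the midbrain (adjusted p = 0.624). With limma 0 markers of neurons, astrocytes, oligodendrocytes, microglia, endothelium or choroid plexus passed for genotype, and 1 in the medulla (of endothelium) and 7 in the midbrain (2 neuronal, 2 astrocytic and 3 endothelial) had an unadjusted p under 0.05. The part of these genes in the clock gene values was not tested.

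Nerve injury was asked next, in each genotype. With limma 0 of 17 clock probe sets and 0% of all passed for CCI in control medulla, KO medulla, control midbrain or KO midbrain. At an unadjusted p under 0.05 there were 0, 1, 0 and 4 clock probe sets in that order, against 633, 959, 679 and 1863 of all. Dbp differed between CCI and sham mice by -0.11 in control and -0.01 in KO medulla, and by -0.03 in control and -0.17 in KO midbrain, where KO sham 4 read 924. Per1 differed by -0.12 and 0.01 in the medulla and by -0.12 and -0.11 in the midbrain. Without KO sham midbrain 2 and 4 the differences in KO midbrain turned to 0.07 (SE 0.14) for Dbp and 0.14 (SE 0.20) for Per1, and 6 of 17 clock probe sets changed sign. In control mice the brightest probe sets differed by -0.17 (Cry1, medulla) to 0.18 (Hlf, midbrain). CCI in control mice did not differ by region past the threshold for any clock probe set (0 of 17, 0% of all, 407 of all at an unadjusted p under 0.05).

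The 4 probe sets in KO midbrain were both of Nr1d2 and the dimmer pair of Tef. The second Nr1d2 probe set read 82.1, 11.7, 96.8 and 85.1 in KO sham and 169, 116, 123 and 110.4 in KO CCI midbrain. The low value is KO sham 2, the array with the raised Actb ratio, and the other 3 sham values were also below all 4 CCI values. The difference was 0.94 (SE 0.32, limma adjusted p = 0.601), and 0.47 (SE 0.12, adjusted p = 0.658) without that array. The second Tef probe set read 22.6 on the same array against 88.0 to 106 on the other KO sham arrays, and its difference was 0.61 (SE 0.27) with it and 0.23 (SE 0.14) without it. The third Tef probe set, which was dim, read 9.71 to 68.7 in KO sham and 53.7 to 82.8 in KO CCI midbrain. Its spread within midbrain groups (residual SD, log2 scale) was 0.43 with all arrays and 0.44 without KO sham midbrain 2. The brightest probe sets of Nr1d2 and Tef differed by 0.16 (SE 0.07) and 0.03 (SE 0.08). The part of RNA quality in these values was not tested.

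Between the regions most clock genes differed. By the brightest probe set 8 of 10 genes were higher in the midbrain than in the medulla, all but Nr1d2 and Clock, and none was lower. Over all probe sets 10 of 17 passed, where 21.5% of all probe sets passed in either direction and 10.5% passed as higher in the midbrain. The median difference of the 17 was 0.24 and that of all probe sets 0.0054.

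By the brightest probe set Hlf, Cry1 and Per2 had the largest differences, that of Per2 on a dim probe set. In control sham mice Hlf averaged 440.3 ± 62.2 in the medulla and 518 ± 41.1 in the midbrain (SD, n = 4 each), and over all arrays was 0.40 higher on its brightest probe set (SE 0.07, limma adjusted p = 8.29e-05) and 0.48 higher on the other (SE 0.06, adjusted p = 5.80e-07). The latter was higher in the midbrain in 16 of 16 animals. Cry1 was also higher in 16 of 16 animals, at 0.40 (SE 0.07, adjusted p = 9.95e-05), with control sham means of 122 ± 16.995 and 166 ± 20.4. Dbp was higher in the midbrain of all 16 animals on both probe sets, by 0.33 (SE 0.06, adjusted p = 2.12e-04) and 0.24 (SE 0.06, adjusted p = 0.00520), its smallest difference within an animal being 0.08 on each.

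Arntl was higher by 0.34 (SE 0.05, limma adjusted p = 2.15e-05) and Tef by 0.32 (SE 0.04, adjusted p = 3.48e-06), each in 15 of 16 animals. Per2 was higher by 0.40 (SE 0.10), Per1 by 0.26 (SE 0.08) and Nr1d1 by 0.22 (SE 0.05), in 15, 15 and 14 animals. Genes known to peak at about opposite times of day, Dbp and Arntl, were both higher in the midbrain. The part of the time of day in these differences was not tested. Nr1d2 differed by 0.01 (SE 0.04) and was higher in 10 of 16 animals. Clock differed by -0.08 (SE 0.05) on its brightest probe set and by 0.13 (SE 0.05, adjusted p = 0.0657) on the other, and with the animal as a replicate block the latter passed (adjusted p = 0.0248). The dimmer pair of Tef probe sets gave 0.20 (SE 0.11) and -0.14 (SE 0.11) and did not pass. The second Per2 probe set gave 0.11 and the second Nr1d2 probe set -0.17, and neither passed.

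Without KO sham midbrain 2 and 4, both left out of the fit, 9 of the 10 calls held. Per1 was lost (0.20, SE 0.08, limma adjusted p = 0.0692) and the second Tef probe set passed (0.31, SE 0.08, adjusted p = 0.00354). Within the lower and within the higher array code, 5 of the 10 calls were kept in each fit to 14 or 16 arrays, those of Tef and of both Hlf probe sets in both.

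**Figure D3:**
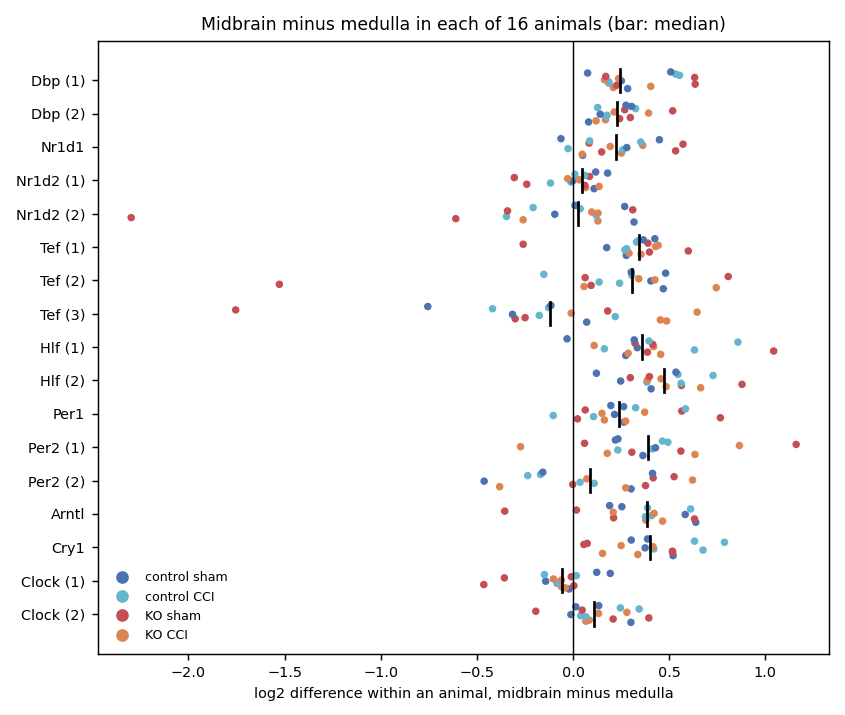
Midbrain minus medulla within each of 16 animals (horizontal axis, log2(intensity + 16)) for the 17 clock probe sets (rows, numbered from the brightest), with a point for each animal and a bar for the median. All 16 animals lie to the right of 0 for both Dbp probe sets, the second Hlf probe set and Cry1, and the points farthest to the left are KO sham animals in the dim second Nr1d2 and the dimmer Tef probe sets.

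Cell markers differed between the regions too, where 21.5% of all probe sets passed in either direction. Of 5 oligodendrocyte markers 3 were lower in the midbrain, and their summed level ran from 16125 to 18670 in the medulla and from 14717 to 16776 in the midbrain. Of 6 astrocyte markers 4 were lower and 1 higher (summed level 11379 to 13570 and 10244 to 11322), of 6 neuronal markers 3 were higher and 2 lower (10364 to 12292 and 9818 to 12904), and of 5 choroid plexus markers 4 were lower and 1 higher (995 to 10481 and 332 to 5377). No marker of these lists averaged 0 or less in either region. Their part in the clock gene differences was not tested. Of 4 genes listed as marks of hypothalamic tissue near the suprachiasmatic nucleus, 2 were higher in the midbrain. Rgs16, a regulator of G protein signalling, averaged 12.7 in the medulla and 47.3 in the midbrain, a log2 difference of 1.10 (SE 0.13, limma adjusted p = 1.97e-07). Vip, a neuropeptide, averaged 67.0 and 84.3 (0.26, SE 0.08, adjusted p = 0.0141). The neuropeptides Avp, at 113 and 111, and Oxt, at 106 and 118, did not pass. The part of such tissue in the clock gene differences was not tested.

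A list of other clock genes gave 17 that were analysed here. With limma 0 of them passed for genotype or CCI in either region, and at an unadjusted p under 0.05 there were 0 for genotype in the medulla and 3 in the midbrain, and for CCI 1 in KO midbrain and 0 in the other 3 comparisons. In the midbrain against the medulla, 5 were higher and 1 was lower. Of all probe sets 21.5% passed there in either direction and 10.5% passed as higher in the midbrain. Rora, the receptor that activates Arntl where Nr1d1 represses it, was 0.31 higher (SE 0.08, limma adjusted p = 0.00309), and Cry2, the second cryptochrome, 0.28 higher (SE 0.04, adjusted p = 5.00e-06). Csnk1e, a kinase that phosphorylates Per proteins, was 0.27 higher (SE 0.05), Timeless 0.27 (SE 0.07) and Per3 0.17 (SE 0.06). Bhlhe41 (Dec2), an E-box repressor, was 0.30 lower (log2 difference -0.30, SE 0.09, adjusted p = 0.0122) on a probe set that averaged 15.7 intensity units. Other probe sets of Rora and Per3 gave -0.03 and -0.05 and did not pass, so that probe sets of these genes disagreed.

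Whether an animal's clock gene level was shared by its regions was asked over 16 animals, with the arrays of an animal joined by consecutive array numbers. Correlations were computed for all 22626 probe sets. By a permutation test with adjustment over all of them, 1 of the 17 clock probe sets passed, the second of Dbp. Of all probe sets 5.89% passed, and 5.86% passed with a correlation above 0. The clock share was near that of all, so the count does not set the clock genes apart. The second Dbp probe set had a Pearson r of 0.90 (permutation p = 1e-05, the smallest that 100000 permutations can give, adjusted p = 0.00310). Its Spearman rho was 0.90 (adjusted p = 0.00628), and its r exceeded that of 99.6% of all probe sets. Without the 2 animals farthest from the median it was 0.85, without each animal in turn 0.87 to 0.94, and within the lower and higher array codes it was 0.95 and 0.88. Without the animals of KO sham midbrain 2 and 4 it was 0.93. With group means subtracted it was 0.80, and the adjusted p of 0.0553 did not pass.

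The level of the second Dbp probe set was highest in both regions in control sham 1, at 378 in the medulla and 413 in the midbrain. KO CCI 1 had the lowest midbrain value, 231, with 213 in the medulla. The brightest Dbp probe set had an r of 0.71 (permutation adjusted p = 0.0527) and a rho of 0.58 (adjusted p = 0.172), 0.48 with group means subtracted. Its r was 0.71 without the 2 farthest animals, and 0.73 and 0.71 within the codes. Per1 had an r of 0.59 (rho 0.57), 0.66 without the 2 farthest animals but -0.16 and 0.32 within the codes, and Nr1d1 an r of 0.54 (rho 0.44), 0.36 without them and 0.51 and 0.43 within the codes. Their permutation adjusted p values were 0.131 and 0.177. Arntl had an r of -0.12 and Tef one of -0.28, the latter 0.39 without the 2 farthest animals. Without the animals of KO sham midbrain 2 and 4, over 14 animals, r was 0.82 for the brightest Dbp probe set, 0.78 for Per1, 0.36 for Nr1d1, 0.13 for Arntl and 0.55 for Tef, the last 2 having changed sign. The median r of all probe sets was 0.23.

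**Figure D4:**
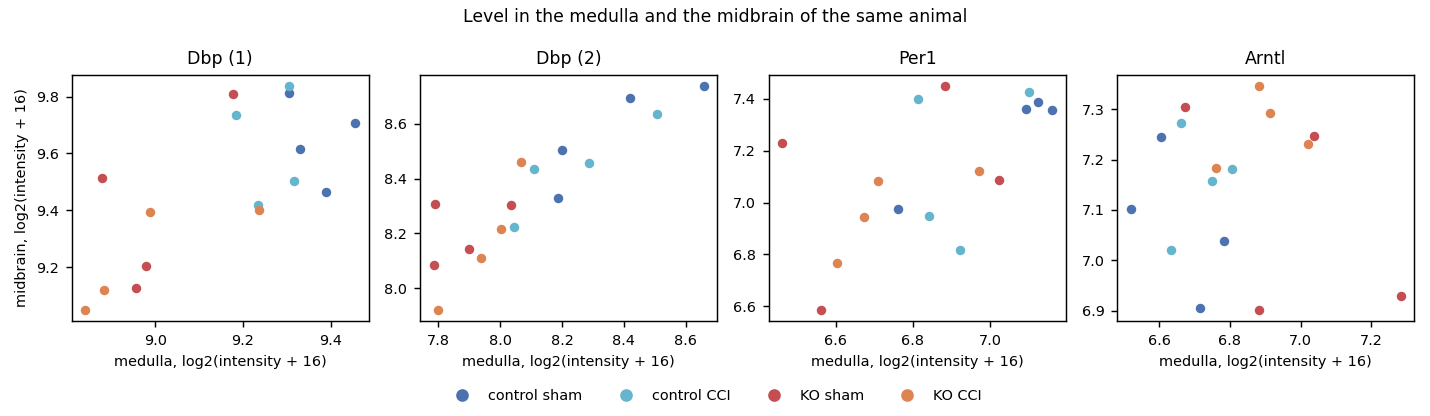
Level in the medulla (horizontal) and in the midbrain (vertical), both as log2(intensity + 16), for both Dbp probe sets, Per1 and Arntl, with a point for each of 16 animals coloured by genotype and operation. The points of the second Dbp probe set follow a line (r = 0.90), those of the brightest Dbp probe set (0.71) and Per1 (0.59) scatter more, and those of Arntl show no slope (-0.12).

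The other clock genes were set against the brightest Dbp probe set across the 16 arrays of each region. With 22625 correlations computed in each region and adjusted together, 0 of the other 16 clock probe sets and 0% of all passed the permutation test in either region, while 622 and 2405 of all had an unadjusted p under 0.05. In the medulla the highest were the second Dbp probe set (r 0.69, rho 0.78), Per1 (r 0.68, rho 0.65), Nr1d2 (r 0.65, rho 0.58), Tef (r 0.57, rho 0.72) and Per2 (r 0.57, rho 0.55), all with an adjusted p of 1. Arntl (r -0.56, rho -0.69) and Clock (r -0.44, rho -0.54) lay below 0. With group means subtracted, Arntl was at 0.01 and the second Dbp probe set at 0.04, while Nr1d2 and Tef were at 0.64 and 0.67. Within the lower and higher codes Per1 was at 0.76 and 0.70, Nr1d2 at 0.89 and 0.63, and Arntl at -0.75 and -0.46. Without the 2 farthest arrays those genes were at 0.57, 0.71 and -0.51.

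In the midbrain Per2 had an r of 0.66 (rho 0.68), the second Dbp probe set 0.63 (rho 0.61) and Per1 0.62 (rho 0.69), with permutation adjusted p values of 0.317, 0.341 and 0.343. Without the 2 farthest arrays these were 0.75, 0.50 and 0.67, and with group means subtracted 0.52, 0.36 and 0.54. Per2 was at 0.77 and 0.62 within the codes, and Per1 at 0.38 and 0.90. Arntl was at -0.43 (rho -0.46) and Nr1d1 at 0.17 (rho 0.18). The second Per2 probe set was at -0.60 (rho -0.55), again opposite to the first. Without KO sham midbrain 2 and 4, over 14 arrays, r was 0.68 for Per2, 0.74 for the second Dbp probe set, 0.58 for Per1, -0.36 for Arntl and 0.35 for Nr1d1. That of Nr1d2 was 0.67, where it was 0.27 over all 16.

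**Figure D5:**
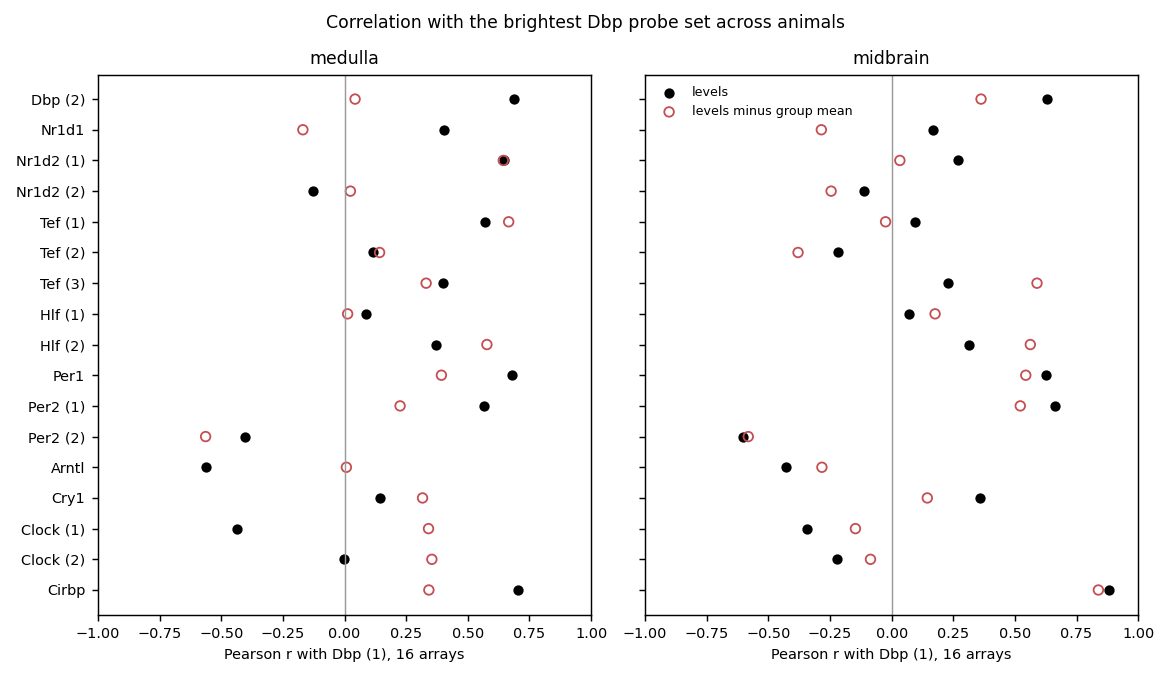
Pearson r with the brightest Dbp probe set over 16 arrays of the medulla (left) and the midbrain (right), for the other 16 clock probe sets and Cirbp, from levels (filled) and from levels minus the group mean (open). Per1 lies at 0.68 and 0.62 and Arntl at -0.56 and -0.43 from levels, and in the medulla Arntl moves to 0.01 once group means are subtracted.

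Genes most like the brightest Dbp probe set were taken from the 10302 and 10321 probe sets with 1 symbol and a mean over 100 intensity units in a region. None passed the adjustment. In the medulla the second Dbp probe set was itself at 0.69 with the brightest, and at 0.04 with group means subtracted. In the medulla the highest Pearson r belonged to Apcdd1, a Wnt inhibitor (0.82), Dctn5, a dynactin subunit (0.81), Pgap2, F8a, Hdgfl3, Cdca7, Hnrnpdl and Dgat2 (0.78 to 0.73), and the lowest to Pdia6, a disulfide isomerase (-0.86), Xbp1, a factor of the unfolded protein response (-0.80), Fzd4 (-0.80) and Srsf6 (-0.80). With group means subtracted, Apcdd1 was at 0.83, Hnrnpdl at 0.50, F8a at 0.35, Dctn5 at 0.31 and Cdca7 at 0.25. Hdgfl3 was then at 0.03, Pgap2 at -0.08 and Dgat2 at -0.09, and the 4 lowest genes at -0.65 to -0.52. In the midbrain Cirbp ranked first (r 0.88, rho 0.91, permutation adjusted p = 0.207), at 0.84 with group means subtracted, 0.99 and 0.91 within the codes and 0.85 without the 2 farthest arrays. It was 0.86 without KO sham midbrain 2 and 4. Cartpt, Selenoh, Rdh11, Cilk1, Inafm2, Ppm1m and Erbin followed (0.83 to 0.80). Dpp3 (-0.88), Xbp1 (-0.82), Hspa5, the chaperone BiP (-0.80) and Aimp2 (-0.80) were lowest. Xbp1 was among the 4 lowest in both regions.

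Spread within groups differed among the clock genes. In the midbrain the residual SD of Nr1d2 was 0.08 on the log2 scale, lower than in all but 4.19% of probe sets, and those of Nr1d1 and Tef were 0.10. The second Nr1d2 probe set, at 0.50, and both dimmer Tef probe sets, at 0.42 and 0.43, were among the widest, above 94.6% to 97.6% of all probe sets. The second Nr1d2 probe set was at 0.17 and the second Tef probe set at 0.19 without KO sham midbrain 2, above 42.8% and 51.1% of all. The third Tef probe set was at 0.44 without KO sham 2 and at 0.35 without KO sham 2 and 4. Dbp had a residual SD of 0.12 in the medulla and 0.22 in the midbrain, where the median of all probe sets was 0.20 in each, and 0.17 in the midbrain without both arrays, where the median was also 0.17.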

How the data were processed

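The authors' deposited table of 32 arrays holds background-subtracted intensities on a linear scale. The software and the scaling between arrays are not given in the sources used here. Per the labels' protocols, biotinylated cRNA was made from 4 ug of total RNA per array. Values under 0 were set to 0, 16 was added, the log2 was taken and arrays were quantile normalized. The 64 control probe sets were left out and 22626 were tested with limma 3.58.1 in R 4.3.3 (lmFit and eBayes, two-sided), with 4 group means for the 16 arrays of a region and 8 for all 32. Benjamini-Hochberg adjustment covered all probe sets of a comparison, and an adjusted p under 0.05 passed. Correlations used 100000 permutations (Python 3.11.15, NumPy 2.4.6), and exact enumeration within an array code. Programs were tested on simulated data. Symbols came from GEO's platform annotation, with 20380 probe sets carrying 1 symbol, 691 several and 1555 none. The precision is limited by the 4 arrays per group, which the design describes as separate animals.

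The members and lists were chosen with earlier results of these data known. Every member was named in every comparison, each by its brightest probe set, other clock genes when they passed, and genes like Dbp by the 8 highest and 4 lowest correlations. Lists of cell markers were read as values only.

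The study's design takes both regions from each animal, and consecutive array numbers in the descriptions give the pairs. Residuals of arrays of 1 animal correlated at 0.171 on average (-0.050 to 0.363, 16 pairs). Arrays of a region from different groups that share only a title number correlated at 0.054 (-0.174 to 0.247, 48 pairs). That value concerns different groups and cannot show whether a title number joins the regions of 1 animal. Within a group, title numbers join the same medulla and midbrain arrays as array numbers do, except for KO sham 3 and 4. The array numbers were used there too. No array was identical to another (0 pairs).

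Alternatives were median centring, a pseudocount of 1 or 64, a filter that dropped the 33.3% of probe sets with the lowest mean, limma's trended and robust variance, blocks for the array code, the title number (replicate block) or the animal (replicate block), fits within a code, fits to only the 2 groups compared, group-centred correlations, and leaving out each array. Leaving out KO sham midbrain 2 and 4 together (for the residual SD also 2 alone), and each animal in the correlation between regions, was added after seeing the data.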

Additional observations from a re-analysis of the deposited data

Results flagged for a closer look

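In each of 136 sets of 4 arrays (17 probe sets in 8 groups), the highest and lowest array was set against the others by Dixon's test at its 95% critical value. Chance marks about 1 in 20 such sets, and 4 were marked. Per1 read 111 in control sham midbrain 2, where the other 3 arrays of the group read 145 to 152. The dim second Per2 probe set read 8.29 in KO CCI medulla 3, against 16.99 to 18.6 on the others. Tef read 761 in KO sham medulla 3, against 531 to 544. The second Tef probe set read 75.6 in control sham medulla 1, against 82.7 to 84.05.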

How the results depend on the processing

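No clock gene result that passed the threshold changed sign under any alternative run, while differences near 0 that did not pass changed sign under some. The count of clock probe sets higher in the midbrain was 10 with all arrays, 10 to 11 when an array was left out, and 5 within the lower array code and 5 within the higher one, which hold fewer arrays. With the animal as a replicate block it was 11, the Clock probe set being the addition, and with the title number as a replicate block also 11. The replicate block changed no other count of calls, and the title number block called 0 for genotype in either region. For genotype in the medulla the count was 0, and 0 to 1 when an array was left out, the 1 being Dbp without KO CCI medulla 3. All other genotype, CCI and interaction counts were 0 in every alternative run. The count for the correlation between regions was 1, and 0 with group means subtracted, 0 within the lower code and 0 within the higher code, which hold 7 and 8 animals. The correlations already pair the arrays of an animal. Pairing by title number left the count at 1, but it changes pairs only among KO sham animals and is a weak check. The number of arrays limits the precision, and probe sets as dim as those of Per2 lie near the background.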
